A study of Mus musculus with 16 samples.

Results

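The injured sciatic nerve of C57BL/6 mice was compared at 14 days and at 7 days after a crush, the step in which regrown axons become myelinated again. The tissue was RNA from the nerve distal to the lesion, measured on an Affymetrix mouse whole-genome array, and the comparison rested on 4 of the 16 arrays of the series, chosen by their titles. Every gene with a probe set of its own was taken with its brightest probe set. Of 18193 such genes, 14545 passed a filter on dim signal and were tested.

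The day 14 group was C57BL/6, wild type, crushed and left for 14 days (2 arrays). The day 7 group was the same strain and lesion after 7 days (2 arrays). Mice of both groups were 8 to 12 weeks old, and the left nerve had a microcrush at mid-thigh. The piece taken began 1 mm and ended 5 mm beyond the crush, and RNA came from pooled stumps. How many mice made up a pool is not given in the sources used here, and the labels say of the 2 arrays per condition only that they are biological replicates, so the spread that all p-values measure may be technical in part. The same steps in C57BL/6 OlaHsd-Wlds mice, called WldS here (2 arrays at day 14 and 2 at day 7), and the uninjured nerve of C57BL/6 mice were used to place the changes. WldS mice carry a spontaneous mutation that delays the degeneration of cut axons.

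After a crush, axons beyond the lesion break down, and the Schwann cells that wrapped them stop making myelin, divide and line up as guides for regrowth. Macrophages clear the debris. When axons return, Schwann cells leave the cell cycle and build a new sheath under the transcription factor Egr2. Myelin is a membrane rich in cholesterol and galactolipids, and Schwann cells make much of that lipid themselves.

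Between day 7 and day 14 the nerve gained RNA of myelin proteins and of the enzymes that make myelin lipid and cholesterol, and lost RNA of cell division genes and of some repair markers and matrix genes. Of 14545 genes, 767 were called at an adjusted p below 0.05 by limma (5.27%). There were 361 higher at day 14 (2.48%) and 406 lower (2.79%), and 239 differed at least 2-fold (1.64%). The median change over all genes was −0.03 on the log2 scale. The arrays of the groups did not overlap for any of the 767 genes, but that was also so for 53.3% of all genes tested, so a gap between 2 arrays and 2 arrays says little alone. The count of calls was between 314 and 410 when any 1 of the 4 arrays was left out, against 767 with all of them. In bulk tissue, fewer cells of a type and less RNA per cell cannot be told apart.

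For Actb and Gapdh, the 3' control signal minus the 5' one (log2, a sign of RNA quality) was 2.14 and 2.17 at day 14, against 2.01 and 1.93 at day 7. Among the WldS arrays of the 2 days, day 14 replicate 2 stood apart with 3.23. Of 6 Schwann cell identity genes (among them Sox10, Erbb3 and S100b), 0 were called by limma (3 at an unadjusted p below 0.05), with mean levels of 10.59 and 10.54 at day 14, against 10.37 and 10.48 at day 7. Both day 14 means were the higher ones. Of 11 skeletal muscle genes tested 0 were called by limma either (0 at an unadjusted p below 0.05), and their mean level was 5.94 and 6.04 at day 14, against 6.03 and 6.04 at day 7.

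The largest rises included genes of myelinating Schwann cells and of macrophages. Ncmap, a protein of noncompact myelin membranes that is listed here with the sheath proteins, had 11.26 and 11.78 log2 units at day 14, against 7.35 and 7.63 at day 7. That was a rise of 4.03 ± 0.20 (SE; adjusted p = 1.37e-08), or 16.3-fold. Fam107a, an actin-associated protein, had 10.18 and 10.45 at day 14, against 4.57 and 5.68 at day 7. Its day 7 mean lies under the dim filter of 5.37 log2 units, so the size of the rise of 5.19 is uncertain for this probe set. Another Fam107a probe set above the filter averaged 9.15 at day 14, against 6.60 at day 7, a change of 2.55. Ddn, an actin-binding protein first described in dendrites, rose by 4.53 ± 0.18, and Kcnk1, a potassium channel, by 3.85 ± 0.21. The day 7 mean of Kcnk1, 5.48, is just above the dim filter, so the size of its rise is uncertain. A second Kcnk1 probe set changed by 0.50. Mme, the cell surface peptidase neprilysin, rose by 3.33 ± 0.14 to 10.96 and 11.18, against 7.64 and 7.85 at day 7. Other large rises were those of Dusp15, a phosphatase tied to myelination (3.10 ± 0.12), Emid1, a secreted matrix protein (3.00 ± 0.18), and the amino acid transporter Slc36a2 (3.27 ± 0.14). Slc36a2 is also a fat cell gene, and it was the only 1 of 14 tested genes of the adipocyte list to be called. The second probe set of Dusp15 changed by 0.76, and that of Mme by under 50% of the reported change.

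Of the 9 proteins of compact myelin and its membranes that were tested, 7 rose and 0 fell, with a median change of 1.29, where 2.48% of all genes rose. Some further myelin proteins are not analysed here. Mbp, which holds the cytoplasmic faces of the sheath together, had 14.12 and 14.24 at day 14, against 12.19 and 12.15 at day 7. It rose by 2.01 ± 0.11 (adjusted p = 3.53e-08), and both day 14 arrays were above both day 7 arrays. The other Mbp probe sets changed by 0.16 to 2.87. Pmp2, a fatty acid carrier of myelin, had 13.13 and 13.36 at day 14, against 11.19 and 11.38 at day 7, a rise of 1.96 ± 0.15. Mal, a lipid raft protein, rose by 1.44 ± 0.17, and Pmp22, the tetraspan protein whose dosage matters in hereditary neuropathy, by 1.22 ± 0.11. Cmtm5 (1.07 ± 0.21) and Myo1d (0.76 ± 0.17) rose less. Cldn19, the claudin of Schwann cell tight junctions, was 1.29 ± 0.38 higher without passing the test (adjusted p = 0.0696), and Mpzl2, an adhesion protein, was at −0.52 ± 0.19 (adjusted p = 0.172). With 1 array left out, 5 or 6 of the 9 members were called. Cmtm5 lost its call without day 7 replicate 1 or day 14 replicate 2 (adjusted p = 0.083 and 0.0713), and Myo1d lost it without any 1 of the arrays (adjusted p between 0.0902 and 0.132).

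Part of the list was near its uninjured level at day 14. Against uninjured nerve, 5 of the 9 were still lower at day 14 and 1 was higher, Pmp2 by 0.45 ± 0.15, while 16.7% of all genes were lower and 17.1% higher in that comparison. Mbp (−0.10), Mal (−0.06) and Pmp22 (0.04) differed from uninjured nerve by less than the test could call. Myo1d (−2.18) and Ncmap (−1.11) were lower at day 14 than in uninjured nerve. These values share the day 14 arrays with the changes above.

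**Figure D1:**
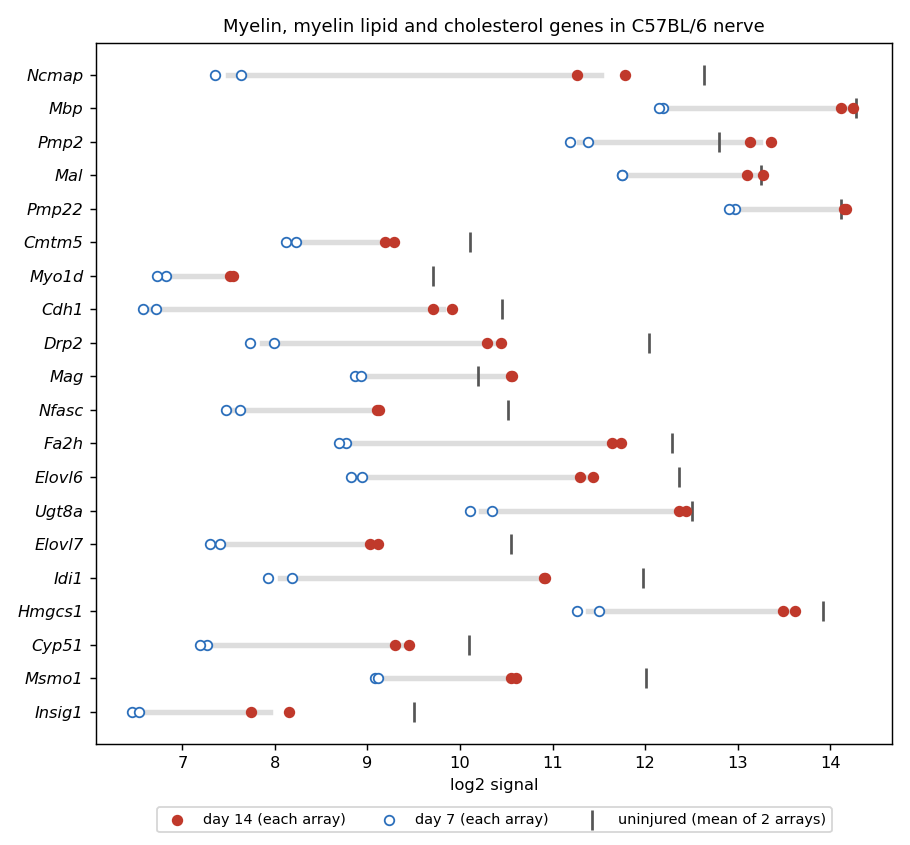
Log2 signal of 20 genes in each C57BL/6 array at day 14 (filled) and day 7 (open), with the mean of the 2 uninjured arrays as a dark tick and a grey band between the day means. Only genes called higher at day 14 were drawn, so by that choice the day 14 arrays lie to the right of the day 7 arrays. Mbp, Mal, Pmp22 and Ugt8a lie close to the uninjured mark at day 14.

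Membranes outside compact myelin carry the junctions and the contacts with axon and matrix. Of 20 such genes tested (21 listed), 8 rose and 1 fell, against 2.48% and 2.79% of all genes. The list's median change was 0.35. Cdh1, the E-cadherin of the junctions that Schwann cells form with themselves, had 9.71 and 9.92 at day 14, against 6.72 and 6.57 at day 7, a rise of 3.17 ± 0.12 (adjusted p = 2.08e-09). Drp2, part of the dystroglycan complex that spaces the outer membrane, had 10.29 and 10.44 at day 14, against 7.74 and 7.99 at day 7, a rise of 2.50 ± 0.13. Both were lower at day 14 than in uninjured nerve, with differences of −0.64 for Cdh1 and −1.68 for Drp2. Mag, the adhesion molecule facing the axon, rose by 1.66 ± 0.19, Nfasc, whose isoforms build paranodes and nodes, by 1.57 ± 0.13, and the connexin Gjc3 by 1.16 ± 0.25. Gjc3 lost its call without day 14 replicate 1, day 7 replicate 1 or day 7 replicate 2 (adjusted p between 0.0801 and 0.126). The 1 gene that fell was Nrcam, a nodal adhesion molecule (−0.66, adjusted p = 0.0232), named after its value was seen. It lost its call with any 1 array left out (adjusted p between 0.0774 and 0.239).

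Enzymes of myelin lipid and fatty acids showed 9 rises and 0 falls among 29 tested (30 listed), where 2.48% of all genes rose. Their median change was 0.43. Fa2h, which puts the hydroxyl group on the fatty acids of galactolipids, had 11.64 and 11.74 at day 14, against 8.77 and 8.70 at day 7. It rose by 2.96 ± 0.11 (adjusted p = 1.65e-09). Ugt8a, the enzyme that makes galactosylceramide, had 12.36 and 12.44 at day 14, against 10.11 and 10.35 at day 7, a rise of 2.17 ± 0.18. Its day 14 level differed from uninjured nerve by −0.11 (adjusted p = 0.7). Gal3st1, which turns that lipid into sulfatide, rose by 1.03 ± 0.21, but its call ended without day 7 replicate 1 (adjusted p = 0.144) or day 14 replicate 2 (adjusted p = 0.0859). Of the elongases, Elovl6 rose by 2.49 ± 0.14, Elovl7 by 1.71 ± 0.20 and Elovl1 by 0.95 ± 0.15. All 3 were lower at day 14 than in uninjured nerve, with differences of −1.0 for Elovl6, −1.49 for Elovl7 and −0.68 for Elovl1. With 1 array left out the count ran from 6 to 8; it was 6 without day 14 replicate 2 or without day 7 replicate 1.

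Cholesterol synthesis rose along most of the pathway. Of 20 genes, 16 rose and 0 fell, with a median of 1.03, where 2.48% of all genes rose. Idi1, which interconverts the isoprenoid building blocks, had 10.91 and 10.92 at day 14, against 8.18 and 7.93 at day 7, a rise of 2.86 ± 0.17 (adjusted p = 1.25e-07). Hmgcs1, an early enzyme that makes the precursor of mevalonate, had 13.49 and 13.62 at day 14, against 11.50 and 11.27 at day 7, a rise of 2.17 ± 0.15. Cyp51, which removes a methyl group from lanosterol, had 9.30 and 9.45 at day 14, against 7.26 and 7.19 at day 7, a rise of 2.14 ± 0.12. The late enzymes Msmo1 (1.48 ± 0.30) and Tm7sf2 (1.35 ± 0.20) and the sterol sensor Insig1 (1.45 ± 0.20) rose as well. The called members thus covered early, middle and late steps, and the 4 that were not called were Ebp, Mvk, Stard4 and Srebf2, with changes from −0.20 to 0.33. Without day 14 replicate 2, day 7 replicate 1 or day 7 replicate 2 the count fell to 9, 10 and 11, and without day 14 replicate 1 it was 13. Msmo1 lost its call in each of those 4 fits (adjusted p between 0.0566 and 0.0741).

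Cholesterol genes were still low at day 14. Against uninjured nerve, 16 of the 20 were lower at day 14, with a median of −1.25, and 17 were lower at day 7, with a median of −2.56. Over all genes, 16.7% were lower at day 14 and 16.4% at day 7. The day 14 level minus the uninjured one was −1.06 for Idi1 and −1.56 for Insig1, and −0.37 for Hmgcs1, which did not pass the test (adjusted p = 0.072).

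Since the cholesterol and the mitosis genes each moved together, their promoters are shown for the letters they hold. The windows run from 250 bases before to 50 bases after the start, on the gene's strand, from RefSeq on GRCm38.p6. Capitals mark TCACNCCAC (a sterol regulatory element) and CCAAT (the CCAAT box, also read as ATTGG) in the 2 cholesterol genes, and CCAAT and TTTGAA (the cell cycle homology region) in the 2 mitosis genes. Motifs were searched on both strands, and no marked motif overlaps another in the windows shown.
Hmgcs1, chr13:119690101-119690400, plus strand: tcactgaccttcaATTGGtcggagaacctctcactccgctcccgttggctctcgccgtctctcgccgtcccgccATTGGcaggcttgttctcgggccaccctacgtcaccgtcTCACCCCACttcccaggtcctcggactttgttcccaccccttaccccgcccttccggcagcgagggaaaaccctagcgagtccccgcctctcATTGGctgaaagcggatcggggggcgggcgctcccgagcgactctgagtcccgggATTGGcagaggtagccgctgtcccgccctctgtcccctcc
Idi1, chr13:8885356-8885655, plus strand: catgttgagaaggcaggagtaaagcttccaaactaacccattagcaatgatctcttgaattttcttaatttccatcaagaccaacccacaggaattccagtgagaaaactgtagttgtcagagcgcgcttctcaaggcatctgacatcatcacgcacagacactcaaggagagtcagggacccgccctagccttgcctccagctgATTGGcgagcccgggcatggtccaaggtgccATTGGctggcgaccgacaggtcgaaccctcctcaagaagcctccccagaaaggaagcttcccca
Cdk1, chr10:69352863-69353162, minus strand: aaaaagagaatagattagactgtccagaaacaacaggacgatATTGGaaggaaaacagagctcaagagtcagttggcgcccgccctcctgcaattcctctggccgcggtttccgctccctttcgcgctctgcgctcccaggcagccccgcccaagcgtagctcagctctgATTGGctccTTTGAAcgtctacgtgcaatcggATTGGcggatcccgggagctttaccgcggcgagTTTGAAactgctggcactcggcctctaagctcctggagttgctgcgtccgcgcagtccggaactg
Ccnb2, chr9:70421505-70421804, minus strand: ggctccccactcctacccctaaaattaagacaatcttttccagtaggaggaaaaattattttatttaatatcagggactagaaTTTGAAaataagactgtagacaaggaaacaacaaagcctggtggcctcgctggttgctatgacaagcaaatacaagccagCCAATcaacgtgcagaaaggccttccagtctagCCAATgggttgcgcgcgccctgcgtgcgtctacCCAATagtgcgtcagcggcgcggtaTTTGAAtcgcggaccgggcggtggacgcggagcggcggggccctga

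The Hmgcs1 window held 4 copies of CCAAT and 1 of TCACNCCAC, and the Idi1 window held 2 of CCAAT. The Cdk1 and Ccnb2 windows each held 3 copies of CCAAT and 2 of TTTGAA. The CCAAT box was in 16 of 19 promoters (84.2%) of the 16 cholesterol genes found in the table, and in 21 of 28 promoters (75%) of the 26 mitosis genes found there, where 37.4% of 32851 promoters held it. TTTGAA was in 21 of 28 mitosis promoters (75%) and in 1 of 19 cholesterol promoters, where 17.9% of all promoters held it. TCACNCCAC was in 1 of 19 cholesterol promoters and in 1.24% of all. These are matches of letters, without any measure of binding.

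Few of the transcription factors that drive myelination passed the test. Of 13 promyelinating and myelin transcription factors, 2 rose and 1 fell, against 2.48% and 2.79% of all genes. The list's median change was 0.13. Egr2, the main activator of myelin genes, had 12.32 and 12.42 at day 14, against 11.47 and 11.46 at day 7, a rise of 0.90 ± 0.17 (adjusted p = 0.00471) to 0.20 above uninjured nerve (adjusted p = 0.41). Egr2 lost its call without day 7 replicate 1 (adjusted p = 0.053) or day 14 replicate 2 (adjusted p = 0.0558). Rxrg, a retinoid receptor, rose by 0.85 ± 0.18, with adjusted p between 0.0778 and 0.117 without day 7 replicate 1, day 7 replicate 2 or day 14 replicate 2. Pou3f1, the factor of the promyelinating stage (also called Oct6), had 11.24 and 11.32 at day 14, against 11.58 and 11.40 at day 7, a change of −0.20 ± 0.18 (adjusted p = 0.748). It was high on both days, 2.56 above uninjured nerve at day 14. Sox10 (0.31), Tead1 (0.39), Zeb2 (0.13), Klf9 (0.31), Mef2a (−0.08), Nab1 (−0.05), Nab2 (0.13), Yy1 (−0.07) and Pou3f2 (0.05) were not called. Nfatc4, a calcineurin target, was called lower (−0.50 ± 0.11), but its other 2 probe sets above the dim filter changed by 0.07 and 0.00, and a dimmer one by −0.11. Its call also ended without day 14 replicate 1, day 7 replicate 1 or day 7 replicate 2 (adjusted p between 0.0948 and 0.144).

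The transcription factors of immature and repair Schwann cells were mostly not called. Of 14 tested (16 listed), 1 rose and 0 fell, with a median of −0.14, where 2.48% of all genes rose and 2.79% fell. Jun, which directs the repair state, had 10.81 and 10.77 at day 14, against 10.73 and 10.76 at day 7 (0.05 ± 0.12, adjusted p = 0.958). Sox2, a factor of the immature cell that holds back myelination, had 10.86 and 10.76 at day 14, against 10.65 and 10.79 at day 7 (0.09 ± 0.12, adjusted p = 0.887). At day 14 Jun was 1.37 and Sox2 3.38 above uninjured nerve, and Egr3, an early response factor, 4.18 above it. The gene that rose was Mycn, a growth regulator (1.04 ± 0.13, adjusted p = 0.000186), but its other 2 probe sets changed by 0.05 and 0.10. Hes1 (−0.41), Hey1 (0.27), Id1 (−0.27), Id2 (0.04), Id3 (−0.36), Id4 (−0.32), Pax3 (0.00), Gli1 (−0.31), Etv5 (−0.44), Egr1 (0.24) and Egr3 (−0.34) were not called, and Hey2 and Olig1 were too dim to be tested.

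Part of the repair Schwann cell markers fell. Of 18 repair markers tested (21 listed), 0 rose and 7 fell, with a median of −0.44, where 2.79% of all genes fell. Shh, the hedgehog ligand that Schwann cells make after injury, had 10.00 and 9.90 at day 14, against 11.81 and 11.84 at day 7. It fell by 1.88 on the log2 scale (SE 0.16, adjusted p = 6.87e-06) and was still 1.09 above uninjured nerve. Gdnf, a survival factor for motor neurons, had 6.37 and 6.23 at day 14, against 7.18 and 7.37 at day 7 (−0.97 ± 0.17). Cdh2, the N-cadherin of immature Schwann cells (−1.05), Clcf1, a cytokine of the CNTF family (−0.85), the EGF-like ligand Btc (−0.84) and the cytokine Lif (−0.78) fell as well. In a list of 16 immature Schwann cell and adhesion markers, Cdh2 was the only 1 to fall and 0 rose, with a median of 0.11. At day 14, 12 of those 16 were higher than in uninjured nerve. Other repair markers did not pass the test, among them Ngfr (−0.40), Bdnf (−0.18), Ncam1 (−0.09), Gap43 (0.59) and Gfap (0.24), named after their values were seen. Against uninjured nerve, 13 of the 18 were higher at day 14 and 1 was lower. With 1 array left out, 4 or 5 of the 18 were called. Btc lost its call each time (adjusted p between 0.0948 and 0.205), and Clcf1 without day 7 replicate 1 or day 14 replicate 2 (adjusted p = 0.062 and 0.0525).

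Genes of cell division fell together. Of 32 mitosis and spindle genes, 30 fell and 0 rose, with a median of −1.0, where 2.79% of all genes fell. Among S phase genes, 14 of 25 tested (27 listed) fell, with a median of −0.58. Cdk1, the kinase that starts mitosis, had 8.09 and 8.29 at day 14, against 9.40 and 9.51 at day 7 (−1.26 ± 0.19, adjusted p = 0.00105). Its partner Ccnb2 had 6.60 and 6.70 at day 14, against 7.82 and 7.98 at day 7 (−1.25 ± 0.21). The kinesin Kif2c (−1.32), the kinetochore protein Nuf2 (−1.29) and the checkpoint kinase Bub1 (−1.28) fell too. Other Kif2c probe sets changed by −0.16, −0.19 and −0.82. The kinesin Kif20a fell by 1.43 to 4.98 and 5.37, under the dim filter, so the size of its fall is uncertain. Ncapg, a condensin subunit (−1.78), and Pbk, a mitotic kinase (−1.62), were among the largest falls of all genes. Mki67, the usual marker of cycling cells, named after its values were seen, fell by 0.98 to 10.42 and 10.34, against 11.39 and 11.32 at day 7. The 2 mitosis genes not called were Foxm1 (−0.34) and Cdc25c (−0.31).

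In S phase, Rrm2, which supplies deoxynucleotides, had 9.65 and 9.61 at day 14, against 10.90 and 11.08 at day 7, and fell by 1.36 (adjusted p = 2.71e-05). Ccne2, the cyclin of S phase entry (−1.33), and the thymidine kinase Tk1 (−1.27) fell. Smaller falls were those of Uhrf1 (−0.85), a factor that maintains DNA methylation, Prim1 (−0.74), a primase, and Gins2 (−0.73), of the replicative helicase. The mitosis count stayed between 21 and 24 with any 1 array left out, but the S phase count was 4 without day 14 replicate 1, 5 without day 7 replicate 1, 6 without day 7 replicate 2 and 9 without day 14 replicate 2. Of the genes named here, Kif20a lost its call without day 14 replicate 1 (adjusted p = 0.0679), as did Prim1 (0.0523), Uhrf1 (0.0564) and Gins2 (0.392). Uhrf1 (0.0864) and Gins2 (0.179) also lost it without day 7 replicate 1, Gins2 (0.186) without day 7 replicate 2, and Bub1 and Ncapg without day 7 replicate 2 or day 14 replicate 2 (adjusted p between 0.0545 and 0.0644).

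Division genes were still above uninjured nerve at day 14. Against uninjured nerve 29 of the 32 mitosis genes were higher at day 14, with a median of 1.17, and 32 at day 7, with a median of 2.13, where 17.1% and 19.6% of all genes were higher. Of 16 D cyclins, Cdk inhibitors and genes of cell cycle exit, 2 rose and 2 fell, against 2.48% and 2.79% of all genes. The inhibitors Cdkn1a (0.78 ± 0.13) and Cdkn1b (0.58 ± 0.14) rose, and Ccnd1, a cyclin of growth factor response (−0.80 ± 0.16), and the inhibitor Cdkn1c (−0.46 ± 0.11) fell. Cdkn1b, Ccnd1 and Cdkn1c lost their calls without any 1 of the 4 arrays; the adjusted p of Ccnd1 was then 0.0575 to 0.0815.

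**Figure D2:**
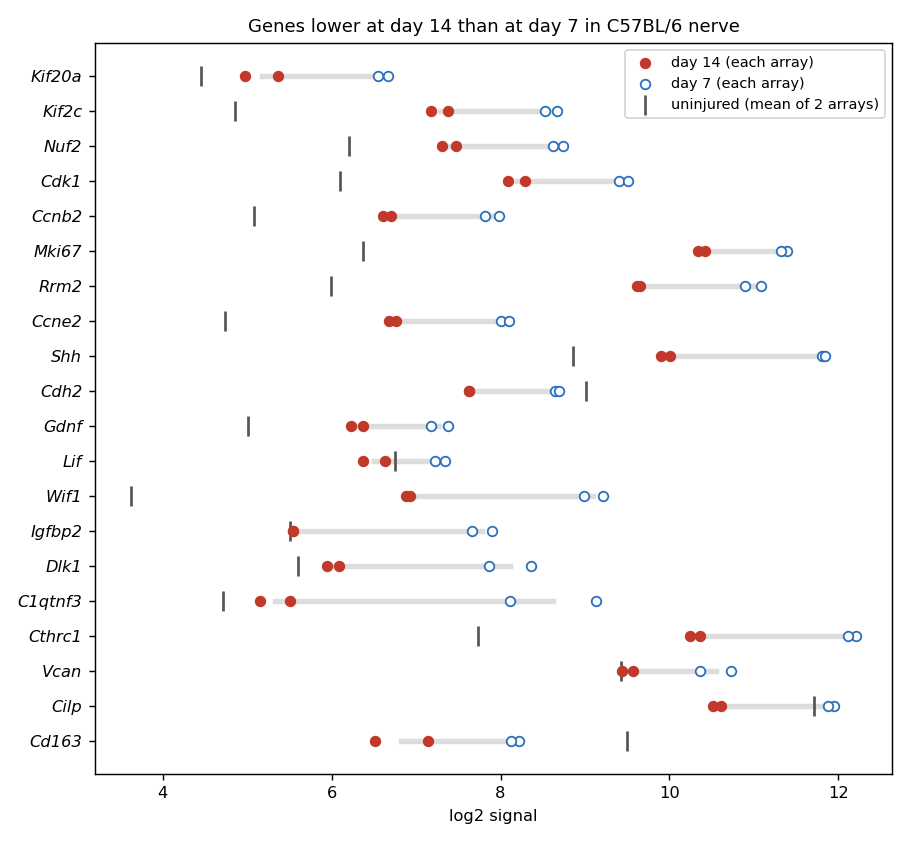
Log2 signal of 20 genes that fell, in each C57BL/6 array at day 14 (filled) and day 7 (open), with the mean of the 2 uninjured arrays as a dark tick and a grey band between the day means. Only genes called lower at day 14 were drawn, so by that choice the day 14 arrays lie to the left of the day 7 arrays. The cell cycle genes are still to the right of the uninjured mark.

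Macrophage genes split into several patterns. Of 23 pan-macrophage genes, 0 rose and 3 fell, where 2.48% of all genes rose and 2.79% fell. The list's median change was −0.17, with mean levels of 9.86 and 10.04 at day 14, against 10.23 and 10.23 at day 7. The 3 were Cd163, a scavenger receptor of resident cells (−1.34 ± 0.19), the LPS coreceptor Cd14 (−0.66 ± 0.15) and the chemokine receptor Cx3cr1 (−0.56 ± 0.13). Cd14 lost its call with any 1 array left out (adjusted p between 0.0755 and 0.158), and Cx3cr1 without day 7 replicate 1, day 7 replicate 2 or day 14 replicate 1 (adjusted p between 0.125 and 0.264). Of 17 genes of alternatively activated macrophages tested (19 listed), 6 rose and 1, Cd163, fell, with a median of 0.36. Chil3, a secreted chitinase-like protein, had 11.34 and 10.68 at day 14, against 5.62 and 5.45 at day 7, a rise of 5.48 ± 0.20 (adjusted p = 1.65e-09) or 44.6-fold. Its day 7 mean of 5.53 is just above the dim filter of 5.37, so the size of this rise is uncertain. Arg1, the arginase of such cells, had 10.47 and 9.23 at day 14, against 6.53 and 6.42 at day 7. It rose by 3.38 ± 0.39, and its 2 day 14 pools lay far apart. The lectins Mgl2 (1.02 ± 0.15) and Clec7a (0.89 ± 0.17) and the secreted Retnla (0.55 ± 0.11) rose less, and the chemokine Ccl17, named after its value was seen, rose by 0.55. Clec7a lost its call without day 7 replicate 2 (adjusted p = 0.0549), and Retnla without day 7 replicate 1, day 7 replicate 2 or day 14 replicate 2 (adjusted p between 0.0737 and 0.095). Ccl17 lost it without day 7 replicate 1, day 7 replicate 2 or day 14 replicate 1 (adjusted p between 0.135 and 0.26). The list had 5 rises without either day 14 array, 4 without day 7 replicate 1 and 3 without day 7 replicate 2.

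Neither Chil3 nor Arg1 ran one way over time. Chil3 averaged 4.93 uninjured, 9.52 at day 3, 5.53 at day 7 and 11.01 at day 14, and Arg1 averaged 5.04, 11.16, 6.47 and 9.85 at the same times. Both were thus high at day 3, much lower at day 7 and high again at day 14. At day 7 both were still called above uninjured nerve, Chil3 by 0.60 and Arg1 by 1.44. WldS nerve had the same early course, with day 3 and day 7 means of 9.87 and 5.71 for Chil3 and 9.92 and 6.72 for Arg1. At day 14 the WldS means were 5.18 and 6.21. Rnase2a, an eosinophil-type ribonuclease, had 8.72 and 8.02 at day 14, against 5.51 and 4.70 at day 7. Its day 7 mean is under the dim filter, so the size of the rise of 3.27 is uncertain.

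Of 33 genes of lipid-laden macrophages, phagocytosis and lysosomes tested (34 listed), 4 rose and 1 fell, against 2.48% and 2.79% of all genes. The list's median change was −0.05. Itgax, the integrin CD11c, had 11.24 and 10.82 at day 14, against 8.63 and 8.74 at day 7, a rise of 2.34 ± 0.19 (adjusted p = 3.97e-06). Atp6v0d2, a proton pump subunit, rose by 1.14 ± 0.19, the tetraspanin Cd9, which Schwann cells also express, by 0.89 ± 0.24, and the bridging protein Mfge8 by 0.53 ± 0.12. Plin2, which coats lipid droplets, fell by 0.67. Cd9 (adjusted p between 0.122 and 0.292) and Mfge8 (between 0.0909 and 0.132) lost their calls with any 1 array left out. Of 10 MHC class II genes, 12 neutrophil genes and 23 interferon response genes tested, 0 were called by limma in each list (3, 1 and 5 at an unadjusted p below 0.05).

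Matrix genes were lower at day 14, with 13 falls and 1 rise among 36 collagen and matrix genes. Their median change was −0.32, and of all genes 2.79% fell and 2.48% rose. Cthrc1, a secreted protein of active fibroblasts, had 10.25 and 10.36 at day 14, against 12.21 and 12.12 at day 7, and fell by 1.86 (adjusted p = 1.95e-05). The small proteoglycans Aspn (−1.20 ± 0.23) and Bgn (−0.95 ± 0.16), the proteoglycan Vcan (−1.05 ± 0.13), the crosslinking enzyme Loxl1 (−1.04 ± 0.17) and elastin, Eln (−1.04 ± 0.14), fell too. The rise was that of Col15a1, a basement membrane collagen (0.62, adjusted p = 0.0344), named after its value was seen. It lost its call with any 1 array left out (adjusted p between 0.0976 and 0.29). Aspn and Bgn lost their calls without day 7 replicate 1 or day 14 replicate 2 (adjusted p between 0.0504 and 0.0851). The count of falls was 4 without day 7 replicate 1, 7 without day 14 replicate 1, 8 without day 14 replicate 2 and 9 without day 7 replicate 2. Of 21 matrix proteases and inhibitors tested, 5 fell and 0 rose, among them Timp1, a protease inhibitor (−0.95 ± 0.15). Only 1 of the 21 was called without day 7 replicate 1, and 2 without any other of the 4 arrays.

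The largest fall was that of C1qtnf3, a secreted relative of complement C1q. It had 5.16 and 5.51 at day 14, against 9.13 and 8.12 at day 7. The size of its fall by 3.29 is uncertain, since the day 14 mean is under the dim filter. Igfbp2, which binds insulin-like growth factors, had 5.54 and 5.54 at day 14, against 7.90 and 7.66 at day 7 (−2.24 ± 0.11), and ended 0.03 above uninjured nerve. Its day 14 level is just above the dim filter, so the size of this fall is uncertain too. Wif1, a Wnt antagonist of nerve connective tissue, had 6.93 and 6.89 at day 14, against 8.99 and 9.21 at day 7 (−2.19 ± 0.14). The notch-like protein Dlk1 had 6.09 and 5.95 at day 14, against 8.36 and 7.86 at day 7 (−2.09 ± 0.20). Dlk1 averaged 5.60 uninjured and 5.66 at day 3, so it was high at day 7 alone among the 4 times.

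Other genes among the 15 largest falls were of mixed kinds. Syt4, a synaptotagmin of vesicle traffic, had 9.49 and 9.36 at day 14, against 11.26 and 11.17 at day 7 (−1.79 ± 0.15). Crym, a thyroid hormone binding protein, had 6.19 and 6.55 at day 14, against 8.09 and 8.24 at day 7 (−1.80 ± 0.18). Clca3a2, of a family of secreted chloride channel regulators, had 8.46 and 8.29 at day 14, against 10.33 and 10.25 at day 7 (−1.91 ± 0.24). The matrix proteins Fbn2 (−1.62), Matn4 (−1.52) and Edil3 (−1.50) and Lurap1l (−1.60) fell as well. All 7 were called and had groups that did not overlap, but the choice of the 15 largest falls required both.

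Marker genes of other cell types gave some calls, mostly falls, where 2.79% of all genes fell. Of 19 endothelial genes 1 fell, Sox18 (−0.73), and the list's mean level was 8.49 and 8.41 at day 14, against 8.73 and 8.65 at day 7. Of 12 pericyte and smooth muscle genes tested 3 fell, Kcnj8 (−0.74), Abcc9 (−0.66) and Rgs5 (−0.60). Each of these 4 genes lost its call in at least 3 of the 4 fits that left out 1 array. Of 23 nerve fibroblast and perineurial genes, 3 fell, Wif1, the Wnt antagonist Frzb (−1.25) and Pi16 (−0.79), and Gsn rose (0.50). Of 29 oxidative phosphorylation genes 0 were called by limma (0 at an unadjusted p below 0.05), with a median of −0.06. Of 15 axonal and neurofilament genes tested, Sncg rose (0.88) and Uchl1 fell (−0.90). With any 1 array left out Pi16 (adjusted p between 0.0716 and 0.323) and Gsn (between 0.0797 and 0.198) lost their calls. Sncg lost it without day 7 replicate 1, day 7 replicate 2 or day 14 replicate 2 (between 0.0976 and 0.467), and Uchl1 without day 14 replicate 1 (0.0774). Bex1, a small adaptor protein known from neurons, rose by 3.72 ± 0.33 to 9.53 and 9.34, against 5.66 and 5.76 at day 7. It averaged 4.48 in uninjured nerve, under the dim filter of 5.37. Its mean over all 16 arrays, 5.47, was just above that filter and was raised by the high day 14 values. Of 7 listed Bex and Tceal genes, 3 were too dim to be tested, and Bex1 was the only 1 of the other 4 to be called.

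**Figure D3:**
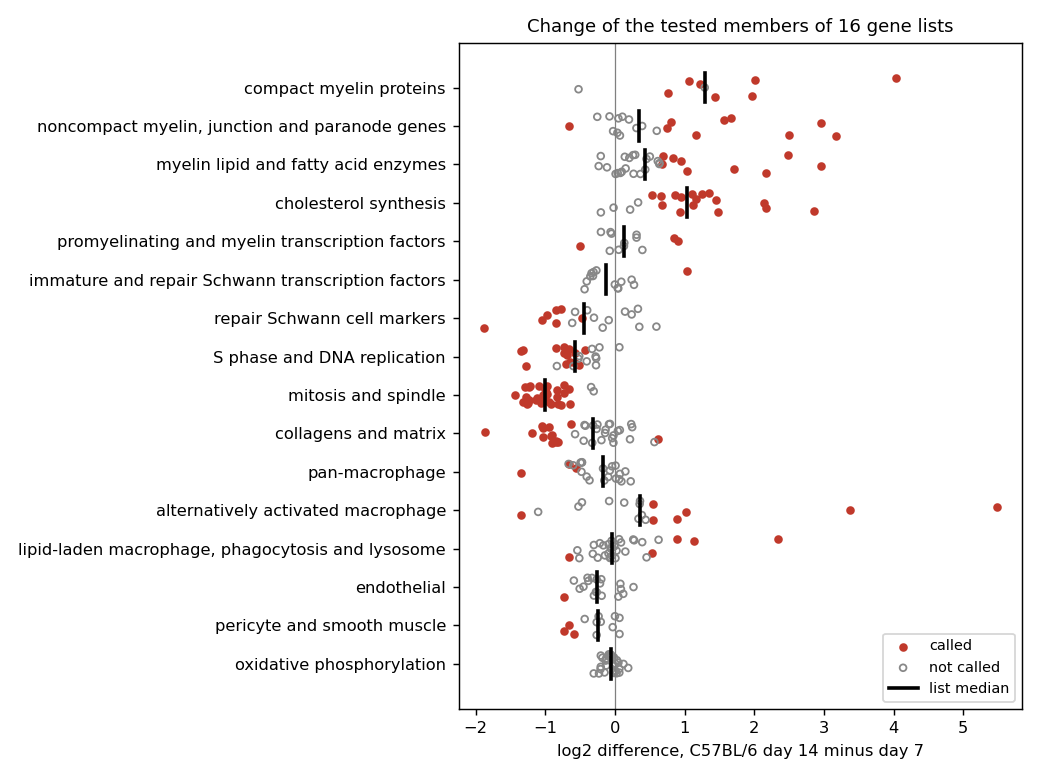
Log2 difference, C57BL/6 day 14 minus day 7, of the tested members of 16 gene lists, with called members filled and the list median as a bar. Compact myelin and cholesterol synthesis lie mostly right of 0, mitosis and spindle wholly left of it, and oxidative phosphorylation around it.

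Many of the called genes had changed the opposite way early after injury. Of the 361 genes that rose, 280 (77.6%) had been called lower at day 3 than in uninjured nerve, as were 18.4% of all genes, and these 280 made up 10.5% of the 2676 genes lower at day 3. Of the 406 that fell, 278 (68.5%) had been called higher at day 3, as were 22.6% of all genes, and they made up 8.46% of the 3285 genes higher at day 3. These 2 comparisons share no array. Across the 14545 genes the changes had a Pearson r of −0.471 and a Spearman rho of −0.36, as a description, since genes are not independent replicates.

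The interval was then set against the same interval in WldS nerve. WldS nerve had 760 calls between day 7 and day 14 (5.23%), with 234 genes higher (1.61%) and 526 lower (3.62%), but 246 calls without day 14 replicate 2, the array with the 3'/5' value of 3.23, and 444 without day 7 replicate 2. Of the 361 genes that rose in C57BL/6 nerve, 51 also rose in WldS nerve (14.1% of the 361 and 21.8% of the 234). Of the 406 that fell, 129 fell in both (31.8% of the 406 and 24.5% of the 526). Across genes the changes had an r of 0.366 and a rho of 0.378. The test of the difference between the changes called 224 genes (1.54%), with 133 higher in C57BL/6 (0.914%) and 91 lower (0.626%). It called 155 without WldS day 14 replicate 2, 139 without C57BL/6 day 7 replicate 1, 129 without C57BL/6 day 7 replicate 2 and 140 without C57BL/6 day 14 replicate 2.

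Compact myelin and cholesterol genes that rose in C57BL/6 nerve were not called in WldS nerve. Among compact myelin proteins 7 of 9 rose in C57BL/6 nerve and 0 in WldS nerve by limma (1 at an unadjusted p below 0.05), and the change differed between strains for 6 of the 9. Mbp changed by 2.01 in C57BL/6 nerve and by 0.20 in WldS nerve, a difference of 1.81 (adjusted p = 1.04e-05). Ncmap changed by 4.03 in C57BL/6 nerve and by −0.07 in WldS nerve, a difference of 4.10 (adjusted p = 1.13e-06). Among cholesterol genes 16 of 20 rose in C57BL/6 nerve and 0 in WldS nerve by limma (5 at an unadjusted p below 0.05). The difference was called for 6 of them. Of 20 genes of noncompact myelin, junctions and paranodes tested, 8 rose in C57BL/6 nerve and 4 in WldS nerve, where 1.61% of all genes rose. The difference was called for 6 of these. The mean level of the compact myelin list was 11.08 and 11.23 in C57BL/6 nerve at day 14 and 9.66 and 9.71 at day 7, and 11.29 and 11.03 in WldS nerve at day 14 and 11.22 and 11.29 at day 7.

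Falls of mitosis and S phase genes were called in C57BL/6 nerve and not in WldS nerve. Among 25 S phase genes tested, 14 fell in C57BL/6 nerve and 0 in WldS nerve by limma (5 at an unadjusted p below 0.05). The difference was called for 2 of these S phase genes. Of 16 D cyclins, Cdk inhibitors and genes of cell cycle exit, 2 fell in C57BL/6 nerve and 1 in WldS nerve. Among mitosis genes 30 of 32 fell in C57BL/6 nerve and 0 in WldS nerve by limma (9 at an unadjusted p below 0.05), and the difference was called for 7, Kif2c (difference −1.40) and Nuf2 (−1.02) among them. Among repair markers 7 of 18 fell in C57BL/6 nerve, while 0 fell and 3 rose in WldS nerve, and the difference was called for 7. Sox2 changed by 0.09 in C57BL/6 nerve and by 1.32 in WldS nerve (difference −1.23, adjusted p = 0.00147), and Pou3f1 by −0.20 and by 1.52 (difference −1.72, adjusted p = 0.00188). The macrophage genes Chil3 (difference 6.00), Arg1 (3.89) and Itgax (2.26) rose in C57BL/6 nerve, with changes of −0.52, −0.52 and 0.08 in WldS nerve.

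Matrix genes fell in both strains. Of 36 collagen and matrix genes 13 fell in C57BL/6 nerve and 14 in WldS nerve, and the difference was called for 0 of them by limma (6 at an unadjusted p below 0.05). Cthrc1 changed by −1.86 in C57BL/6 nerve and by −1.47 in WldS nerve. C1qtnf3 (−3.29 and −4.48) and Dlk1 (−2.09 and −2.83) fell in both strains. A difference that misses the test does not show that the strains were equal. The pan-macrophage list had 3 falls in C57BL/6 nerve and 11 in WldS nerve, the endothelial list 1 and 11, and the interferon list 0 and 10. Over all genes, 2.79% fell in C57BL/6 nerve and 3.62% in WldS nerve. The difference was called by limma for 2, 0 and 0 members of the 3 lists (9, 5 and 8 at an unadjusted p below 0.05). Counts of list members in WldS nerve were not repeated with an array left out.

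**Figure D4:**
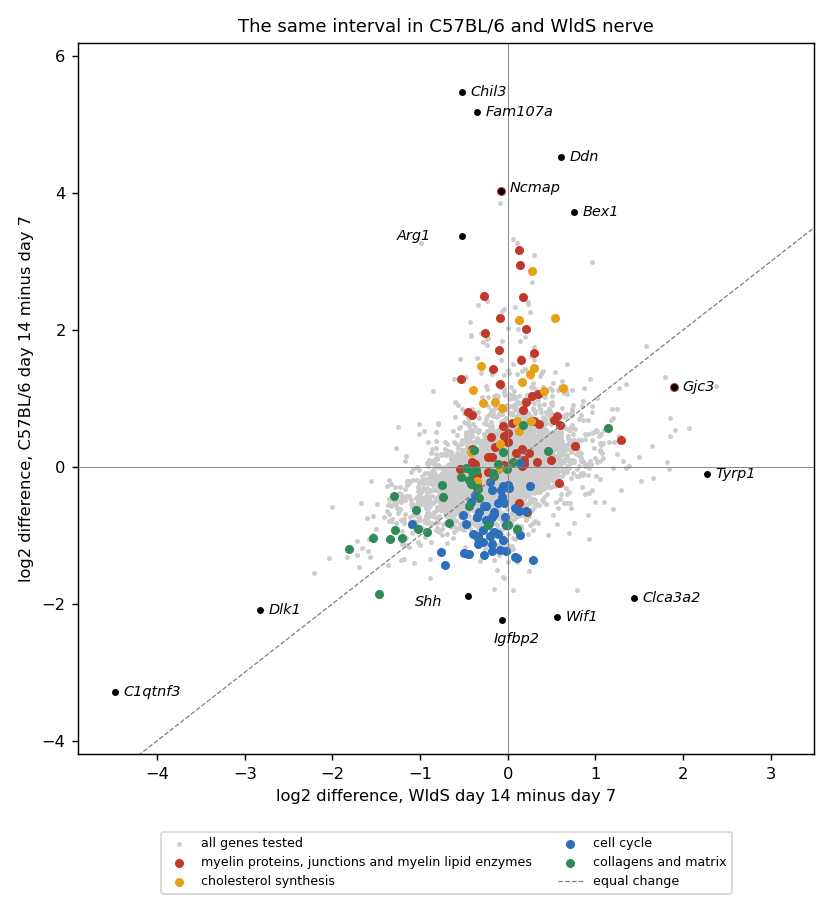
Log2 difference, day 14 minus day 7, in C57BL/6 nerve (vertical) and WldS nerve (horizontal) for all genes tested, with 4 groups of lists coloured. Many myelin and cholesterol genes rise along the vertical axis near 0 on the horizontal one. Of 20 noncompact myelin and junction genes among them, 4 were called higher in WldS nerve. C1qtnf3 and Dlk1 lie low on both axes.

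**Figure D5:**
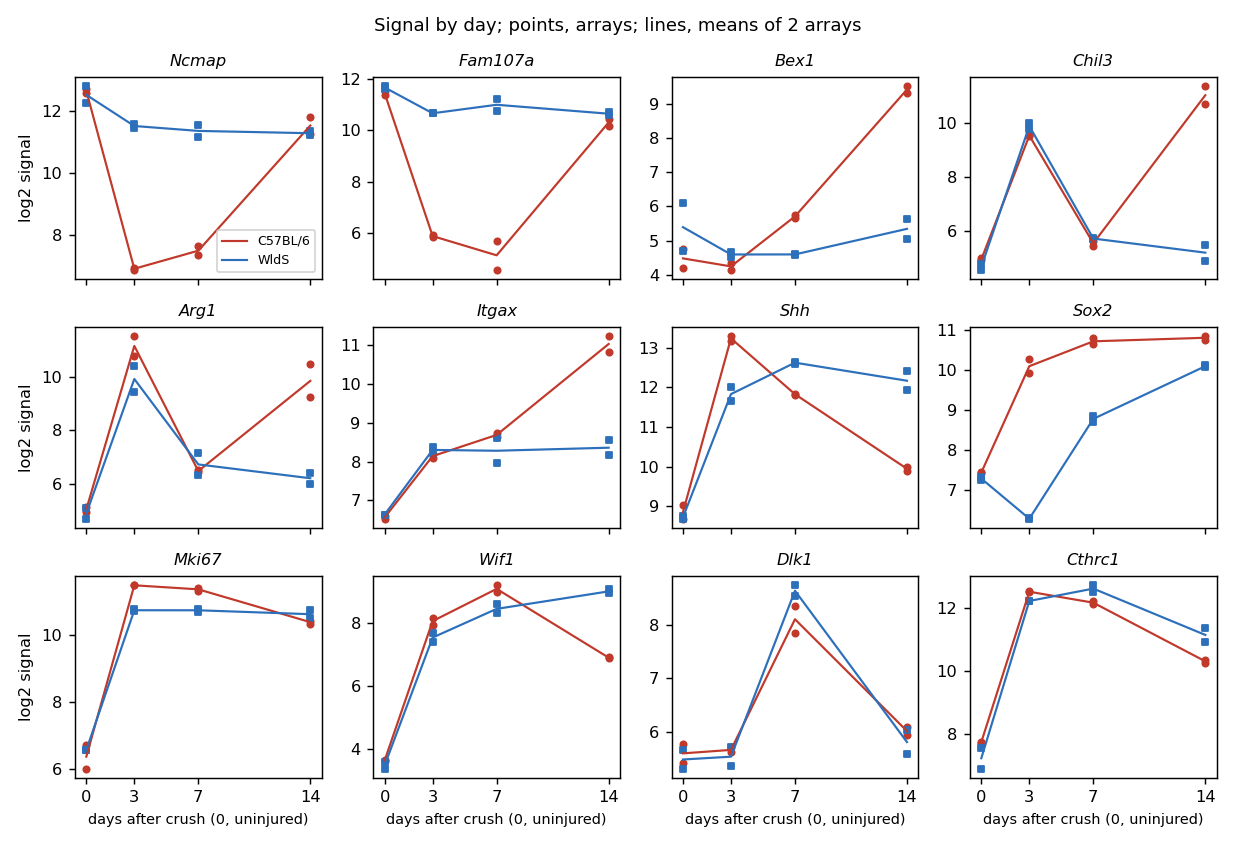
Log2 signal of 12 genes at days 0 (uninjured), 3, 7 and 14 in C57BL/6 (circles) and WldS (squares) nerve, with each array as a point and lines through the means of 2 arrays. Ncmap and Fam107a dip and return in C57BL/6 nerve, and Bex1 is highest at day 14 in C57BL/6 nerve. Chil3 and Arg1 are high at day 3 and lower at day 7 in both strains, and high again at day 14 in C57BL/6 nerve.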

How the data were processed

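RNA of pooled nerve segments was measured on Affymetrix whole-genome mouse arrays, 2 per group. The authors deposited 1 log2 signal per probe set, normalized between arrays (medians between 6.42 and 6.49). The submitters' processing notes list RMA, GCOS 1.4, limma and Partek, without saying which did what. Of 45101 probe sets, 34945 had 1 gene symbol in the platform table, 932 had several and 9160 had none listed; only the first kind was used. For each gene the probe set brightest on average over 16 arrays was kept, and genes under the 30th percentile of probe set means (log2 5.37) were left out.

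All 16 arrays entered 1 linear model of group means in limma 3.58.1 (R 4.3.3; 8 residual and 5.82 prior degrees of freedom). Contrasts were tested two-sided, with Benjamini-Hochberg adjustment over 14545 genes and a threshold of 0.05. Values after ± are standard errors. Array data carry no read depth, and the number of arrays limits the precision. Lists were described by counts and medians with no test of the list. The members and lists were chosen with earlier results of these data known. The text names the 15 largest rises and falls, up to 6 called members of a list, every member of the compact myelin and transcription factor lists, and the 8 largest strain differences each way; other genes are marked. Some genes are not reported here. Alternatives were other normalizations, filters, probe set rules and priors, other sets of arrays, a replicate block, the 3'/5' value as a covariate, and leaving out each array. Replicate numbers did not pair the C57BL/6 arrays of the comparison: deviations of same-numbered arrays at day 14 and day 7 correlated at −0.05 across genes. Among all pairs of the 8 groups the correlation ran from −0.58 (WldS day 0 and day 14) to 0.19 (C57BL/6 day 3 and day 7).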

Additional observations from a re-analysis of the deposited data

Results flagged for a closer look

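The change from day 7 to day 14 was tested for a difference between the strains, as the C57BL/6 change minus the WldS change, with limma's interaction contrast, and 224 of 14545 genes passed. Values below are these differences on the log2 scale.

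Of the genes of myelin and its junctions, the difference was 4.10 for Ncmap, 3.04 for Cdh1, 2.77 for Drp2, 2.21 for Pmp2, 1.81 for Mbp, 1.60 for Mal, 1.42 for Nfasc, 1.36 for Mag, 1.31 for Pmp22 and 1.16 for Myo1d. Lipid and cholesterol enzymes had 2.81 for Fa2h, 2.58 for Idi1, 2.31 for Elovl6, 2.26 for Ugt8a, 2.01 for Cyp51, 1.82 for Elovl7 and 1.63 for Hmgcs1. Other genes that rose more in C57BL/6 nerve were Fam107a (5.54), Kcnk1 (3.95), Ddn (3.92), Mme (3.27), Slc36a2 (3.16), Bex1 (2.97), Dusp15 (2.79) and Emid1 (2.03). Immune genes had 6.00 for Chil3, 4.25 for Rnase2a, 3.89 for Arg1, 2.26 for Itgax, 1.32 for Mgl2 and 0.98 for Retnla.

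Of cell cycle genes, the difference was −1.64 for Rrm2, −1.58 for Pbk, −1.44 for Ccne2, −1.40 for Kif2c, −1.11 for Ccnd1 and −1.02 for Nuf2. Of Schwann cell factors and repair signals it was −1.72 for Pou3f1, −1.42 for Shh, −1.40 for Btc, −1.30 for Egr3, −1.23 for Sox2, −1.21 for Gdnf and −1.11 for Cdh2. Clca3a2 had −3.35, Wif1 −2.75, Crym −2.59, Igfbp2 −2.18, Syt4 −1.85, Matn4 −1.76, Lurap1l −1.54 and Edil3 −1.38. Of these, Clca3a2 (1.44), Wif1 (0.56) and Crym (0.79) were called higher at day 14 in WldS nerve, against falls in C57BL/6 nerve. The others were not called in WldS nerve. Tyrp1, a pigment enzyme (−2.37), Epha5, an ephrin receptor (−1.98), and Saa1, an acute phase protein (−1.88), rose in WldS nerve by 2.27, 0.93 and 1.85, beside changes of −0.10, −1.06 and −0.04 in C57BL/6 nerve.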

How the results depend on the processing

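Precision is limited by 2 pools per group, with a median standard deviation between pools of 0.081 at day 14 and 0.061 at day 7. The genes called, 767 with all arrays, numbered 1217 (682 lower) with the C57BL/6 arrays alone and 1836 (794 higher, 1042 lower) with the 4 arrays alone, whose own spread is then the base of the test; with the 3'/5' value as a covariate 556 were higher. The lipid enzymes called were 15 with the 4 arrays alone and 14 with that covariate. WldS calls numbered 365 without the 2 arrays of high 3'/5' value.

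With 1 array left out, calls ran from 314 to 410 (172 to 228 higher, 142 to 217 lower, 197 to 226 at least 2-fold). They ran from 129 to 214 for the strain difference, 246 to 935 in WldS nerve, 3316 to 3663 for day 14 against uninjured, 3585 to 3650 for day 7 against uninjured and 1230 to 1401 for day 7 against day 3. Members called ran from 5 to 6 for compact myelin, 6 to 7 for junctions, 6 to 8 for lipid enzymes, 9 to 13 for cholesterol, 4 to 5 for repair markers, 4 to 9 for S phase, 21 to 24 for mitosis and 4 to 9 for matrix. A lone array in a group is assumed to vary like the other groups. Of 121 called genes that the text may name, 69 kept their call in every alternative, 52 lost it in at least 1 fit without an array, 11 in another alternative, and 0 changed sign.

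The replicate numbers did not pair the arrays; with the replicate block 698 genes were called (332 higher, 366 lower). Of the called genes with a second probe set above the filter, 54 in number, 92 of 94 other probe sets changed the same way, and the 2 exceptions were those of Nfatc4. Of the 94, 24 changed by under 50% of the reported change; they came from 19 genes, among them Drp2 (0.23), Elovl6 (0.45), Msmo1 (0.34), Myo1d (0.19) and Clcf1 (−0.36).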

Other observations

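Of 17 tested genes in a list of neurotrophins, GDNF family members, some cytokines and receptors 4 fell, where 2.79% of all genes fell. They were Gdnf, Clcf1 and Lif, which are also repair markers, and Gfra1. Clcf1 and Lif are cytokines, not neurotrophins or GDNF family members. Gfra1, the GDNF receptor, was at 10.86 and 10.99 log2 units at day 14, against 11.84 and 11.83 at day 7 (−0.91 ± 0.19, adjusted p = 0.00901). Gfra1 lost this call without day 7 replicate 1, day 7 replicate 2 or day 14 replicate 1 (adjusted p between 0.0682 and 0.0949). Of 13 hedgehog genes 2 fell, the repair marker Shh and the effector Gli2 (−0.74 ± 0.16), which lost its call without day 7 replicate 1, day 14 replicate 1 or day 14 replicate 2 (adjusted p between 0.0793 and 0.173). Of 19 tested TGF-beta, activin and BMP genes 1 fell, Tgfb3, a ligand (−0.79 ± 0.14), which also fell in WldS nerve (−1.07) and lost its C57BL/6 call without day 7 replicate 1 (adjusted p = 0.0658).

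Of 22 laminins, integrins and partners tested (23 listed), 2 rose and 2 fell, against 2.48% and 2.79% of all genes. The list's median change was 0.08. Utrn, the dystrophin relative of the Schwann cell outer membrane, was at 12.70 and 12.74 at day 14, against 11.96 and 11.99 at day 7 (0.75 ± 0.15), and Lamb1, a basement membrane laminin, rose by 0.53 ± 0.11. Itga7 (−0.70) and Itga1 (−0.54), laminin and collagen receptors, fell. These 4 lost their calls without any 1 of the 4 arrays. Cilp, a cartilage-type matrix protein, was at 10.61 and 10.51 at day 14, against 11.95 and 11.88 at day 7 (−1.35 ± 0.12), and fell in WldS nerve by 1.19.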
